A study of Homo sapiens with 8 samples.

Results

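The receptors of the epidermal growth factor (EGF) family and their ligands were examined in AB8/13, a conditionally immortalised line of human podocytes, after knockdown of ATOH8, which encodes a transcription factor of the basic helix-loop-helix class. The members were 9 genes taken by symbol from the 60564 genes of the deposited count table. They comprised the receptor genes EGFR, ERBB2 and ERBB3 and the ligand genes HBEGF, AREG, EREG, TGFA, BTC and NRG1. For ATOH8 knockdown, 4 libraries were made from cells that received shRNA against ATOH8 in a Lipofectamine transfection, and for control 4 libraries were made from cells given a non-targeting shRNA in the same way. All cells, knockdown and control alike, were AB8/13 cells expanded at 33 °C and then moved to 37 °C for 5 days, which shuts off the temperature-sensitive large T antigen that immortalises the line. A single immortalised line was used, with shRNA sequences not given in the sources used here.

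EGF family ligands are made as membrane proteins, and metalloproteases of the ADAM family cut them at the cell surface to release the growth factor. Binding of a ligand joins receptors into pairs, whose kinases then start the RAS-ERK and PI3K-AKT cascades. EGFR binds TGFA, AREG, HBEGF, EREG and BTC, whereas the neuregulin NRG1 binds ERBB3 and ERBB4. ERBB2 has no known ligand of its own and serves as a partner for the others. In mice, HBEGF and EGFR signalling in podocytes has been linked to crescentic glomerulonephritis.

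Total counts ran from 23229160 to 25277868 in ATOH8 knockdown libraries and from 21108695 to 27109043 in control libraries. ATOH8, the targeted gene, had 51, 71, 61 and 53 counts in knockdown libraries, against 175, 160, 122 and 128 counts in control libraries, which is -1.26 on the log2 scale (SE 0.127, edgeR adjusted p = 1.78e-09). The defining podocyte marker NPHS1 (nephrin) was close to absent, at 2 to 6 counts in knockdown and 0 to 2 counts in control libraries. The summed level of 10 podocyte markers was 697 to 741 CPM (read counts scaled to a common library size) in knockdown and 872 to 905 CPM in control libraries, and of the 5 tested 1 was higher and 3 were lower. KIRREL1, at 489 CPM in knockdown and 626 CPM in control libraries, and CD2AP, at 189 CPM in knockdown and 227 CPM in control libraries, made up most of that sum. Of 9 mesangial and pericyte markers, 5 of 6 tested were higher and 1 was lower, with sums of 189 to 207 CPM in knockdown and 97.0 to 102 CPM in control libraries. CSPG4, at 83.4 CPM in knockdown and 22.8 CPM in control libraries, THY1, at 19.05 and 1.69 CPM, and ACTA2, at 71.9 and 57.1 CPM, made up most of that rise. RGS5 was the lower gene, at 6.71 CPM in knockdown and 8.82 CPM in control libraries. Of 9 endothelial markers, 5 of 6 tested were higher, with sums of 49.1 to 53.1 CPM in knockdown and 29.3 to 33.0 CPM in control libraries. EHD3, at 34.8 CPM in knockdown and 24.7 CPM in control libraries, made up most of that sum. EMCN was at 0 in all libraries and PECAM1 had at most 1 count. Of 8 parietal and tubule markers, 3 of 6 tested were higher and 1 was lower, with sums of 1951 to 2025 CPM in knockdown and 1721 to 1764 CPM in control libraries. The keratin genes KRT8, at 516 CPM in knockdown and 374 CPM in control libraries, and KRT19, at 361 and 203 CPM, carried that rise. PAX8, at 538 and 562 CPM, and CLDN1, at 579 and 592 CPM, did not pass. AQP1 was the lower gene, at 1.14 CPM in knockdown and 5.19 CPM in control libraries. Both tested leukocyte markers of 6 were higher, with sums of 101 to 112 CPM in knockdown and 75.2 to 85.6 CPM in control libraries, but PTPRC had at most 2 counts and CD68 alone, at 105.8 CPM in knockdown and 79.3 CPM in control libraries, made up nearly all of the sum. Beside these marker counts, 25.2% of all 16884 genes tested were higher and 25.9% were lower. The part of these marker differences in the results on receptors and ligands was not tested.

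Ligand genes differed between the groups in both directions, and no receptor gene passed the test. AREG and NRG1 were higher in ATOH8 knockdown, BTC, TGFA and HBEGF were lower, and EREG and the 3 receptor genes did not pass the test. All 9 members had enough counts to test, and 5 of them (55.6%) passed an adjusted p of 0.05, against 51.1% of all 16884 genes tested, so the share of members called was close to that of all genes. The 2 members called higher compare with 25.2% of all genes called higher, and the 3 called lower with 25.9% called lower. AREG and BTC both passed the test and changed at least 2-fold, as did 4.48% of all genes tested. The groups did not overlap in CPM for 5 members, as for 45.6% of all genes tested. The median log2 fold change of the members was -0.08, with a range of -1.33 to 1.23, against a median of -0.00072 for all genes tested. In these bulk samples, fewer cells that express a gene and less RNA of that gene per cell cannot be told apart.

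**Figure D1:**
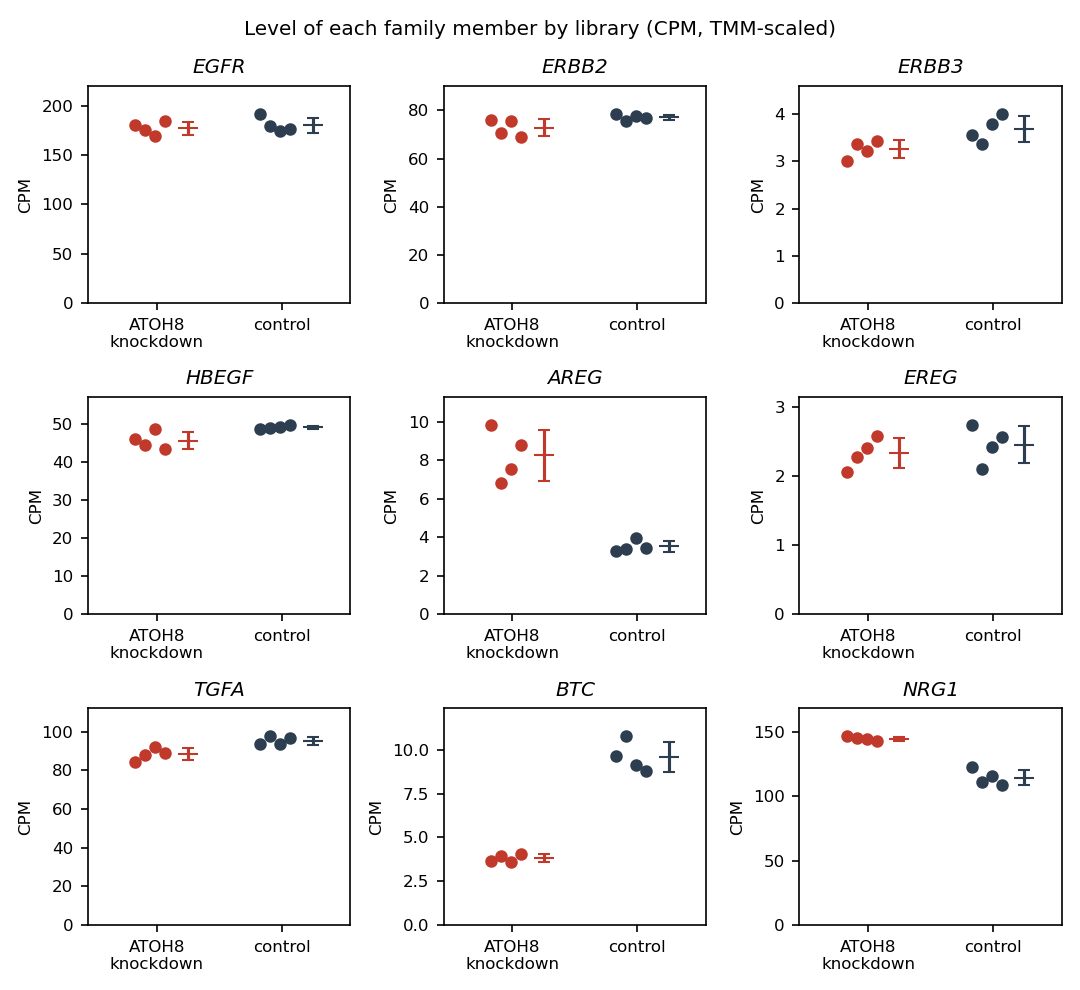
CPM of each member (y axis, linear from 0) in the 4 ATOH8 knockdown libraries (red) and the 4 control libraries (dark blue). Points are libraries and the bars beside them are the mean and SD. The groups stand apart by more than 2-fold for AREG and BTC and by 1.26-fold for NRG1, and they lie close together or overlap for the others.

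The receptor genes had log2 fold changes of -0.02 for EGFR, -0.08 for ERBB2 and -0.17 for ERBB3, none of which passed the test. EGFR, which encodes the receptor for most of these ligands, had 181, 175, 169 and 184 CPM in ATOH8 knockdown libraries, against 191, 179, 174 and 176 CPM in control libraries. The ranges overlapped, and the highest value was that of control replicate 1. The log2 fold change was -0.02 (SE 0.0351, edgeR adjusted p = 0.593), with an interval of 1.96 SE from -0.09 to 0.04, and an exact permutation test, two-sided over 70 assignments of libraries to groups, gave p = 0.571. Without control replicate 1 the value was 0.0045, of the opposite sign (edgeR adjusted p = 0.926).

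ERBB2, the receptor without a ligand, had 76.1, 70.7, 75.8 and 68.9 CPM in knockdown libraries, against 78.4, 75.7, 77.5 and 77.0 CPM in control libraries. Each knockdown library lay below the control mean, but knockdown replicates 1 and 3 lay within the control range. ERBB2 differed by -0.08 on the log2 scale (SE 0.0378, edgeR adjusted p = 0.0676, two-sided exact permutation p = 0.0857). The call turned with 1 library, since without knockdown replicate 1 or 3 ERBB2 passed the test (edgeR adjusted p = 0.0283 and 0.0344). ERBB2 also passed with the replicate number as a block (log2 -0.084, edgeR adjusted p = 0.0420), but pairing of the libraries by number was not settled. On the opposite strand ERBB2 overlaps the annotated genes PGAP3 and MIEN1, which had 220 to 728 counts per library, with a strand setting not given in the sources used here.

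ERBB3, a neuregulin receptor whose own kinase is weak, was low, at 3.01, 3.38, 3.23 and 3.42 CPM in knockdown libraries, against 3.56, 3.38, 3.80 and 4.00 CPM in control libraries. The groups overlapped at control replicate 2. On the log2 scale ERBB3 differed by -0.17 (SE 0.124, edgeR adjusted p = 0.254), with an interval of 1.96 SE from -0.42 to 0.07. At 70 to 103 counts per library, that interval also holds differences larger than the -0.11 of TGFA and HBEGF. GENCODE release 29 places a further row on the same strand over ERBB3, AC034102.2, with 613 to 713 counts in knockdown and 569 to 754 counts in control libraries, and the assignment of reads in shared exons was not given in the sources used here. ERBB4, the other neuregulin receptor and not a member, had 0 to 5 counts in knockdown and 1 to 3 counts in control libraries, too few to test.

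AREG, the gene of amphiregulin, had the largest rise of the members. Its level was 9.81, 6.83, 7.53 and 8.80 CPM in ATOH8 knockdown libraries, against 3.30, 3.38, 3.95 and 3.45 CPM in control libraries. Every knockdown library was above every control library, and the knockdown libraries also spread more. The mean was 8.24 ± 1.32 CPM in knockdown and 3.52 ± 0.291 CPM in control libraries (SD, n = 4), a 2.35-fold rise in the fit (log2 1.23, SE 0.115, edgeR adjusted p = 3.77e-10). It rested on 174 to 228 counts in knockdown and 83 to 90 counts in control libraries. The build hg19, named in the submitters' processing notes, carries a near-identical copy of AREG, annotated as AREGB. Of the gene identifiers in the table, 58457 were shared with GENCODE release 29, a GRCh38 annotation, of which 41747 had the same version and 16710, AREG among them, a later one. No row was matched to AREGB. With the build unsettled and the counting of reads that match both copies not given in the sources used here, the level of AREG is uncertain.

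BTC, the gene of betacellulin, had the largest fall. Its level was 3.66, 3.97, 3.62 and 4.06 CPM in knockdown libraries, against 9.67, 10.8, 9.13 and 8.81 CPM in control libraries. No knockdown library reached the lowest control library. The mean was 3.82 ± 0.222 CPM in knockdown and 9.59 ± 0.861 CPM in control libraries (SD, n = 4), so that knockdown stood at 39.9% of control (log2 -1.33, SE 0.0972, edgeR adjusted p = 2.66e-12). By p, BTC ranked 383 and AREG 789 among the 16884 genes tested. For AREG and for BTC the exact permutation test, two-sided, gave p = 0.0286, and no lower p can be reached with 4 libraries in each group.

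The promoters of AREG and BTC, which moved in opposite directions, are shown with that of EREG, their neighbour on chromosome 4, which did not pass the test. RefSeq promoter windows of 300 bases, from 250 bases before to 50 after the start of the gene, were found for 7 of the 9 members. The sequences run 5′ to 3′ on the strand of the gene, and capitals mark the E-box CANNTG, the motif of helix-loop-helix factors, and the cyclic AMP response element TGACGTCA, both searched on both strands.
AREG: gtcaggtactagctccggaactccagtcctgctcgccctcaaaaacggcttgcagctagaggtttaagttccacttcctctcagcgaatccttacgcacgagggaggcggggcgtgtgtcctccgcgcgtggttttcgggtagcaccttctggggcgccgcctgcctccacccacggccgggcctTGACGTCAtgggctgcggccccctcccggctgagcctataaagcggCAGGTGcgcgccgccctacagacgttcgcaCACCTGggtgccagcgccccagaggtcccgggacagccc
BTC: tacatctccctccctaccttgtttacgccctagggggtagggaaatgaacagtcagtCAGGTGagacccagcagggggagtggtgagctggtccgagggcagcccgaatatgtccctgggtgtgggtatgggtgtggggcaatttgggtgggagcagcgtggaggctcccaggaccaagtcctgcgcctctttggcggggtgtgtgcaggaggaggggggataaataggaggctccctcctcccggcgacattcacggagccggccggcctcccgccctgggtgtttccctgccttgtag
EREG: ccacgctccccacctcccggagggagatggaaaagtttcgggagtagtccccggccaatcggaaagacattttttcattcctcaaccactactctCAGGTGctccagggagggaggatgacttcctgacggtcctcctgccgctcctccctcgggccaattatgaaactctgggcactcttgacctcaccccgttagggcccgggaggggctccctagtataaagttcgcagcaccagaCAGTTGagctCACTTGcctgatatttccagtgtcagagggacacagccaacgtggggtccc
The windows lie in GRCh38.p14 at chr4:74444886-74445185 on the plus strand for AREG, at chr4:74794474-74794773 on the minus strand for BTC and at chr4:74364895-74365194 on the plus strand for EREG. The AREG window holds 1 cyclic AMP response element, at position -65 from the start, and neither the BTC nor the EREG window holds it. Of 35116 promoter windows, 1.85% hold this element. Its half-site TGACG, held by 24.6% of windows and not marked, was in the EREG window at -125 and absent from that of BTC. E-boxes, which 68.7% of the windows hold, numbered 2 in AREG, 1 in BTC and 3 in EREG. The AP-1 motif TGANTCA, searched on both strands and held by 7.71% of windows, was in none of these windows, and the marked matches did not overlap. A match describes the letters of the window and not binding, which was not measured.

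NRG1, a neuregulin gene and one of the abundant ligand genes here, also rose. It had 147, 145, 145 and 143 CPM in knockdown libraries, against 123, 111, 116 and 109 CPM in control libraries. All 4 knockdown libraries were above all 4 control libraries and lay closer together. NRG1 was higher by 0.34 on the log2 scale (SE 0.0354, edgeR adjusted p = 3.70e-09), or 1.26-fold, on 3361 to 3697 counts in knockdown and 2432 to 3267 counts in control libraries. NRG2, a second neuregulin gene and not a member, was far lower, at 37, 31, 28 and 37 counts in knockdown libraries, against 24, 7, 18 and 17 counts in control libraries. NRG2 averaged 1.37 ± 0.191 CPM in knockdown and 0.669 ± 0.290 CPM in control libraries, with no overlap (log2 1.04, SE 0.271, edgeR adjusted p = 0.00193).

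TGFA and HBEGF, which encode abundant ligands of EGFR, were slightly lower. TGFA had 84.5, 87.7, 92.1 and 89.1 CPM in knockdown libraries, against 93.6, 97.5, 93.5 and 96.4 CPM in control libraries. The groups did not overlap, though knockdown replicate 3 came close to the lowest control library. The log2 fold change was -0.11 (SE 0.0351, edgeR adjusted p = 0.0102). HBEGF, the gene of heparin-binding EGF-like growth factor, had 46.0, 44.3, 48.6 and 43.3 CPM in knockdown libraries, against 48.6, 49.0, 49.1 and 49.6 CPM in control libraries. Its control libraries lay within about 1 CPM of each other, and knockdown replicate 3 stood just below them. HBEGF was at -0.11 on the log2 scale (SE 0.0419, edgeR adjusted p = 0.0319). The HBEGF call was lost by DESeq2 (adjusted p = 0.0811) and in 5 of 8 fits with 1 library omitted, those without control replicate 2, 3 or 4 or knockdown replicate 2 or 4 (edgeR adjusted p = 0.0547 to 0.114). With the exact permutation test, two-sided, p was 0.0286 for NRG1, TGFA and HBEGF, and 0.0571 for HBEGF when CPM was scaled by total count.

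EREG, the gene of epiregulin, was low and did not pass the test. It had 2.06, 2.28, 2.41 and 2.59 CPM in knockdown libraries, against 2.74, 2.10, 2.42 and 2.56 CPM in control libraries. The ranges lay almost on top of each other. The log2 fold change was -0.07 (SE 0.153, edgeR adjusted p = 0.723), with an interval of 1.96 SE from -0.37 to 0.23, so a rise like that of AREG lies outside the interval whereas smaller changes lie within it. Among the ligand genes that were not members, EGF had 31, 43, 35 and 36 counts in knockdown libraries, against 46, 49, 37 and 34 counts in control libraries (log2 -0.15, SE 0.190, edgeR adjusted p = 0.529). EPGN, NRG3 and NRG4 had at most 2 counts in any library and were not tested.

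**Figure D2:**
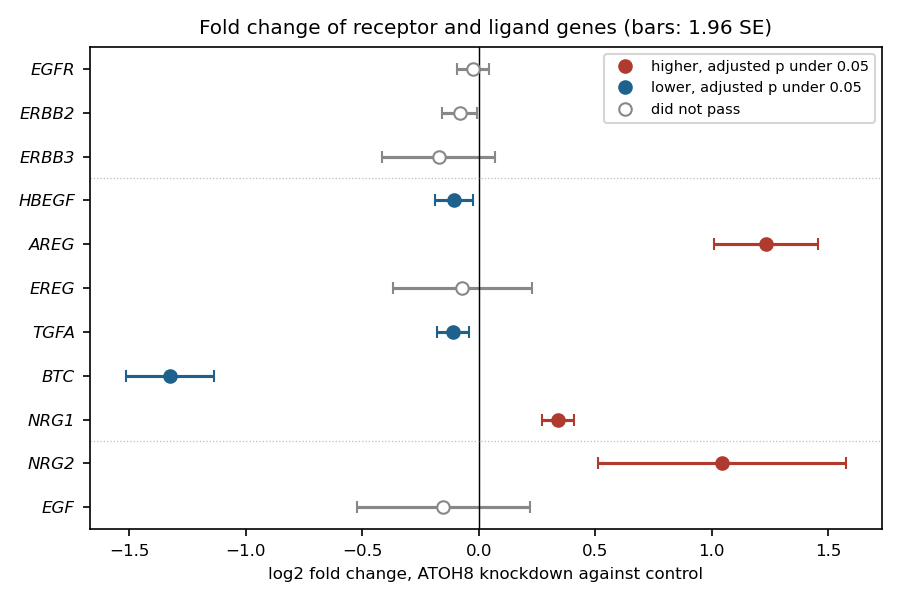
Log2 fold change of ATOH8 knockdown against control (x axis) for the 9 members and, below the lower dotted line, NRG2 and EGF. Bars span 1.96 SE, and filled points passed an edgeR adjusted p of 0.05. AREG at 1.23 and BTC at -1.33 lie farthest from 0, and the receptors at the top lie between -0.17 and -0.02.

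Per length, the members fell into an abundant and a scarce set. Levels were computed as CPM per kilobase of the longest annotated coding transcript, since levels of different genes can be compared only per length. In knockdown libraries the order was NRG1 at 24.4 ± 0.261, TGFA at 20.5 ± 0.738, HBEGF at 19.1 ± 0.963, EGFR at 18.0 ± 0.678 and ERBB2 at 15.2 ± 0.762 CPM per kilobase (SD, n = 4). AREG followed at 6.65 ± 1.07, then BTC at 1.36 ± 0.0788, ERBB3 at 0.551 ± 0.0314 and EREG at 0.506 ± 0.0478 CPM per kilobase. In control libraries the order was TGFA at 22.1 ± 0.467, HBEGF at 20.6 ± 0.174, NRG1 at 19.3 ± 1.01, EGFR at 18.3 ± 0.780 and ERBB2 at 16.1 ± 0.233 CPM per kilobase. BTC at 3.41 ± 0.306 and AREG at 2.84 ± 0.235 came next, with ERBB3 at 0.623 ± 0.0459 and EREG at 0.532 ± 0.0582 CPM per kilobase last. Neighbours in the order whose ranges overlapped were TGFA with HBEGF, HBEGF with EGFR and ERBB3 with EREG in knockdown libraries, and HBEGF with NRG1, NRG1 with EGFR, BTC with AREG and ERBB3 with EREG in control libraries. The transcripts in use were not measured, and with the median transcript length in place of the longest the control levels of EGFR, NRG1 and TGFA became 53.7, 71.1 and 100.3 CPM per kilobase. ERBB3 then stood above BTC in knockdown libraries, at 3.17 and 2.22 CPM per kilobase, and above AREG in control libraries, at 3.59 and 3.21 CPM per kilobase. The order among both abundant and scarce genes thus depends on the length used.

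Of the summed level of the 6 ligand genes per length of the longest transcript, AREG made up 9.16% ± 1.41 in knockdown and 4.13% ± 0.353 in control libraries, and BTC 1.88% ± 0.141 in knockdown and 4.95% ± 0.422 in control libraries (SD, n = 4). NRG1 made up 33.7% ± 0.677 in knockdown and 28.1% ± 1.26 in control libraries. TGFA held 28.3% in knockdown and 32.2% in control libraries, and HBEGF 26.3% in knockdown and 29.9% in control libraries. With the median transcript length the share of AREG was 3.54% in knockdown and 1.59% in control libraries, that of BTC 1.048% in knockdown and 2.77% in control libraries, and that of HBEGF 8.99% in knockdown and 10.2% in control libraries. TGFA then held 43.8% in knockdown and 49.8% in control libraries, and NRG1 42.4% in knockdown and 35.3% in control libraries. The sizes of the shares thus depend on the length, while each of these 5 ligand genes kept its direction between the groups. The length does not alter the fold of a gene between the groups. For AREG and BTC, with the largest rise and fall of the ligand genes, the direction of the share was therefore fixed in advance. These shares are descriptions without a test, and a rise of any ligand lowers the share of the others. Of the 3 receptor genes, EGFR held 53.4% and ERBB3 1.63% in knockdown libraries, against 52.3% for EGFR and 1.78% for ERBB3 in control libraries. With the median length EGFR held 67.3% and ERBB3 4.05% in knockdown libraries, against 66.2% for EGFR and 4.43% for ERBB3 in control libraries.

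**Figure D3:**
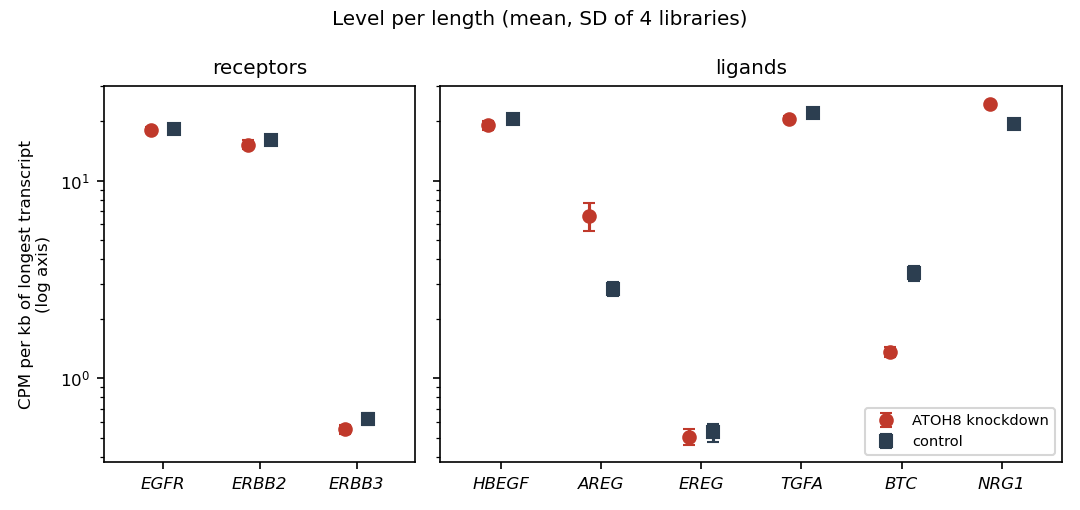
Mean CPM per kilobase of the longest coding transcript (y axis, log scale) for receptors (left) and ligands (right) in ATOH8 knockdown (red circles) and control (dark blue squares) libraries, with the SD of 4 libraries. AREG lies above BTC in knockdown, at 6.65 and 1.36, whereas the ranges of the pair overlap in control. With the median transcript length, not drawn, the control means were 5.58 for BTC and 3.21 for AREG.

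Several of the ligand genes are neighbours on chromosome 4, and genes next to each other there moved in opposite directions. In RefSeq order EPGN, EREG, AREG and BTC follow each other, and they were placed, after their values had been seen, in a run of 20 protein-coding genes with 8 more on each side. Of the 15 tested genes of the run, 3 were higher, 6 were lower and 6 did not pass, beside 25.2% higher and 25.9% lower among all genes tested. On the EPGN side the lower genes were the chemokine genes CXCL1 (460 ± 22.6 CPM in knockdown and 831 ± 44.7 CPM in control libraries, log2 -0.85), CXCL5 (log2 -0.97, SE 0.0357), CXCL3 (log2 -0.88, SE 0.0815) and CXCL2 (log2 -1.06, SE 0.0498). The folate enzyme gene MTHFD2L was also lower (log2 -0.71, SE 0.103), and all 5 had edgeR adjusted p of at most 1.23e-06. AREG was the only tested gene between CXCL1 and BTC that was higher. Beyond BTC the called genes were ODAPH (log2 0.42, SE 0.0441, edgeR adjusted p = 3.43e-09) and CDKL2 (log2 0.22, SE 0.0561, edgeR adjusted p = 0.00174), both higher. CXCL1, CXCL2 and CXCL3 are similar in sequence, so reads may have been split among them.

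**Figure D4:**
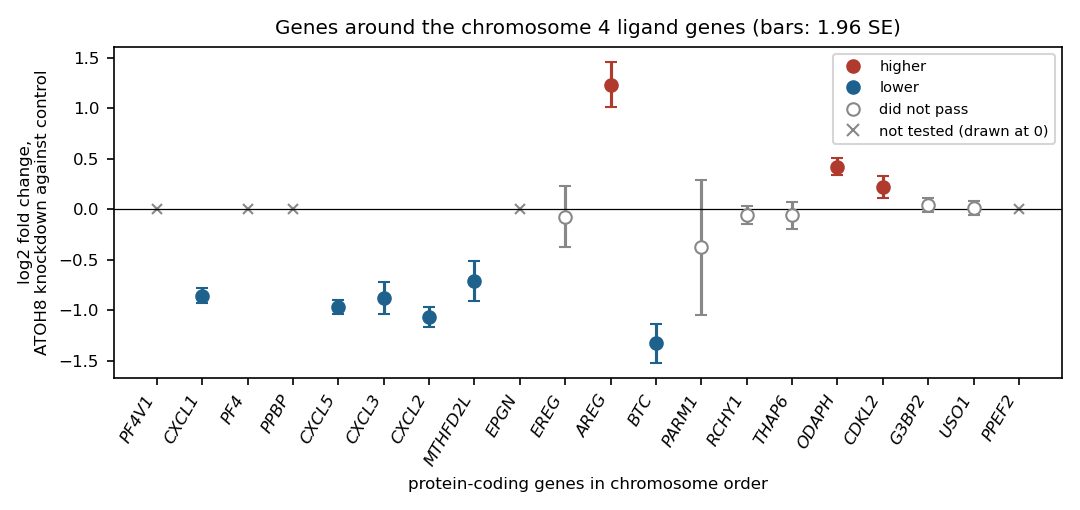
Log2 fold change of ATOH8 knockdown against control (y axis, bars of 1.96 SE) for 20 protein-coding genes of chromosome 4 in RefSeq order (x axis). Filled points passed the test, open points did not, and crosses at 0 mark genes with too few counts. AREG at 1.23 stands between the lower genes CXCL1 to MTHFD2L and BTC.

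Of the genes that shed the ligands, most differed by small amounts in either direction. Of 9 listed, 8 were tested, and 4 of them were higher, 3 were lower and 1 did not pass. Their median log2 fold change was 0.05, and among all genes tested 25.2% were higher and 25.9% lower. ADAM17, the main sheddase of TGFA, AREG, HBEGF and EREG, fell to 69.3 ± 1.41 CPM in knockdown libraries, against 74.9 ± 1.72 CPM in control libraries (log2 -0.11, SE 0.0354, edgeR adjusted p = 0.00949). RHBDF1, which encodes iRhom1, a partner that carries ADAM17 to the surface, was higher (log2 0.18, SE 0.0436), as was the iRhom stabiliser FRMD8 (log2 0.13, SE 0.0398), whose call was lost without control replicate 2 (edgeR adjusted p = 0.0511). ADAM10, a sheddase of BTC in mouse cells, was higher at 249 ± 13.8 CPM in knockdown and 234 ± 2.68 CPM in control libraries (log2 0.09, SE 0.0345, edgeR adjusted p = 0.0266), and that call was lost in 5 of 8 fits, those without control replicate 1, 2 or 3 or knockdown replicate 2 or 4 (edgeR adjusted p = 0.0556 to 0.124). ADAM9 (log2 -0.16, SE 0.0315) and ADAM15 (log2 -0.12, SE 0.0376) were lower. In all 8 fits with 1 library omitted the count of higher genes was below 4, at 1 to 3. It was 1 without control replicate 2 and 2 without control replicate 3 or knockdown replicate 2.

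Downstream of the receptors, more of the listed genes were higher than lower. Of 18 adaptor and RAS-ERK kinase genes, 9 were higher, 2 were lower and 7 did not pass (median log2 0.09). GAB2, a docking protein, was at 46.6 ± 0.765 CPM in knockdown and 34.6 ± 1.45 CPM in control libraries (log2 0.43, SE 0.0432, edgeR adjusted p = 1.93e-09), and MAPK3, which encodes ERK1 (log2 0.31, SE 0.0529), and the RAS exchange factor SOS2 (log2 0.28, SE 0.0403) were higher too. The docking protein gene GAB1 was among the lower ones (log2 -0.18, SE 0.0526). Of 10 PI3K-AKT genes, 5 were higher, 1 was lower and 4 did not pass (median log2 0.03). They included the AKT-activating kinase PDPK1 (log2 0.24, SE 0.0352), MTOR (log2 0.13, SE 0.0371) and PIK3R2 (log2 0.12, SE 0.0362) as higher and PIK3R1 (log2 -0.20, SE 0.0390) as lower, the last pair both regulatory subunits of PI3K. The 25.2% of all genes called higher and 25.9% called lower apply to these lists as well.

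Of the 20 listed negative regulators of the pathway, 10 were higher, 1 was lower and 9 did not pass, and the median was 0.14 on the log2 scale. The 55.0% of these genes that passed lay close to the 51.1% of all genes tested, but more of the calls were higher. Among all genes tested 25.2% were higher and 25.9% were lower. The ubiquitin ligase gene CBLB rose to 21.3 ± 0.995 CPM in knockdown libraries, against 13.3 ± 0.342 CPM in control libraries (log2 0.68, SE 0.0583, edgeR adjusted p = 6.58e-11). The ERK phosphatase genes DUSP6, at 34.4 ± 1.09 CPM in knockdown and 22.5 ± 1.23 CPM in control libraries, and DUSP5, at 80.9 ± 2.33 CPM in knockdown and 59.2 ± 1.40 CPM in control libraries, were higher by 0.61 and 0.45 on the log2 scale. The Sprouty gene SPRY2 was the lower one (log2 -0.17, SE 0.0494).

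Of 15 genes that respond to ERK signalling in many cell types, 10 were higher, 4 were lower and 1 did not pass, and the median was 0.24 on the log2 scale. Of all genes tested 25.2% were higher and 25.9% lower, and the list is described here by its counts alone. DUSP6, SPRY2 and SPRY4 stand in this list and in that of the inhibitors. DUSP4, another ERK phosphatase, had the largest change, at 5.95 ± 0.763 CPM in knockdown and 1.93 ± 0.366 CPM in control libraries (log2 1.64, SE 0.138, edgeR adjusted p = 4.84e-11). The receptor gene EPHA2 was at 200.2 ± 10.6 CPM in knockdown and 151.6 ± 5.07 CPM in control libraries (log2 0.40, SE 0.0364). The lower genes included the early response gene IER3, at 131.8 ± 2.85 CPM in knockdown and 181.6 ± 4.34 CPM in control libraries (log2 -0.46, SE 0.0320), the AP-1 subunit FOSL1 (log2 -0.32, SE 0.0355) and MYC (log2 -0.20, edgeR adjusted p = 0.00154). Called genes of the list thus lay on both sides of 0, and no protein or phosphorylation was measured.

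**Figure D5:**
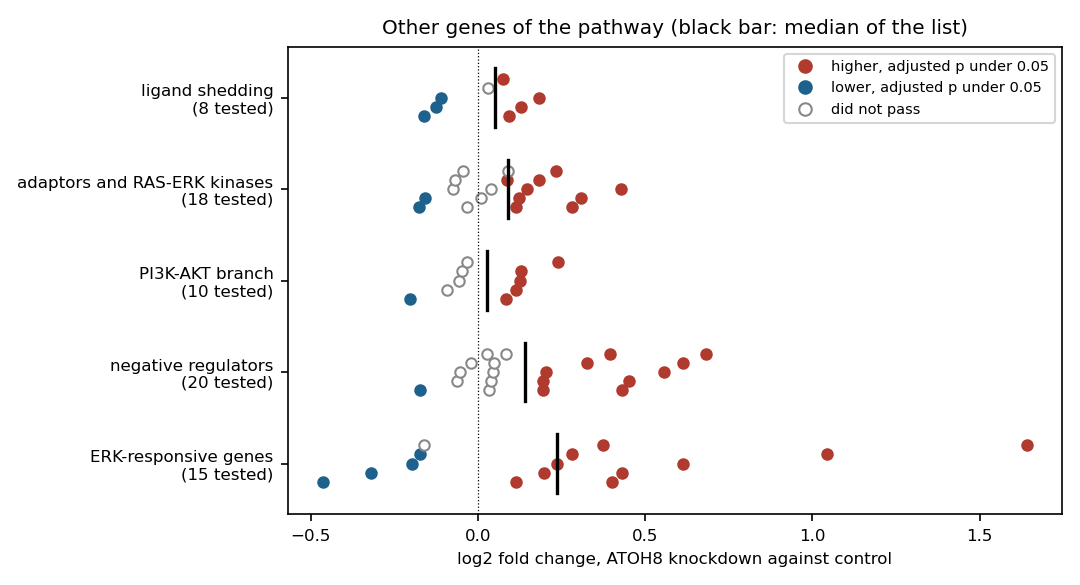
Log2 fold change of ATOH8 knockdown against control (x axis) for the tested genes of 5 lists (rows, number tested in brackets). Points are genes, spread vertically for legibility and filled where the edgeR adjusted p was below 0.05, and black bars are list medians, from 0.03 to 0.24. DUSP4 at 1.64 lies farthest to the right and IER3 at -0.46 farthest to the left.

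Genes whose profile over the 8 libraries was most like that of a called member were found as the smallest root mean square difference in log2 CPM, each profile centred on its control mean, among 12215 other genes. For AREG they were KRT34 (difference 0.103) and CELF2 (difference 0.112), whose own log2 fold changes were 1.35 and 1.16. For BTC they were BCHE (difference 0.0746) and HNRNPA3 (difference 0.0813), with log2 fold changes of -1.23 and -1.27. For NRG1 they were TANC2 (difference 0.0183) and DUSP7 (difference 0.0226). TGFA was matched by VPS35 (difference 0.0124) and ZNF587B (difference 0.0154), and HBEGF by RPL37A (difference 0.0214) and COLGALT1 (difference 0.0219). ZNF587B itself did not pass the test (log2 -0.096, SE 0.056, edgeR adjusted p = 0.157). With 2 groups, this measure mostly ranks genes by a like fold change and low noise.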

How the data were processed

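RNA of 8 libraries was measured, 4 of ATOH8 knockdown and 4 of control cells. Per the labels' protocols, directional libraries were made from polyadenylated RNA, with an RNA integrity number over 7.0 required. The authors deposited whole-number read counts per gene. The submitters' processing notes name the build hg19 and the tools STAR, featureCounts, FastQC and DESeq2, with versions, annotation, strand setting and the handling of multiply matching reads not given in the sources used here.

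Of 60609 rows, 1 with a missing cell and 44 pseudoautosomal Y copies, all at 0, were left out. Symbols came from a gene name table for 60295 genes and from GENCODE release 29 for 250. Transcript lengths came from GENCODE release 29 and promoters from RefSeq, both on GRCh38, and no coordinates were taken from the counts. Counts were fitted over all genes with edgeR 4.0.16 in R 4.3.3 (filterByExpr, TMM, robust quasi-likelihood F test, Benjamini-Hochberg adjustment, threshold 0.05). Log2 fold changes are ATOH8 knockdown against control, SE was derived from F, and CPM are TMM-scaled. Single members were also tested with a two-sided exact permutation test on log2(CPM + 0.5). The fit was tested on simulated data with known answers.

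The members, the lists and the tests were chosen with earlier results of these data known. Named genes were the members, the rest of the EGF family, the genes that overlap members, up to 3 higher and 3 lower genes per list by adjusted p, and the closest profiles. Some genes that this rule names are not reported here. Of 10 annotated rows that overlap members, 3 had any count. Replicates are called biological in the design text, which names no separate cultures, so p-values measure the spread between libraries, which may be technical in part. No 2 libraries of a group were alike within sampling noise (chi-square per gene of 1.89 to 4.42 over 12 pairs). Alternatives were other scalings, filters and pseudocounts, DESeq2 1.42.0, the replicate block, median transcript length and the omission of each library.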

Additional observations from a re-analysis of the deposited data

How the results depend on the processing

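The fits without 1 library and the other alternatives gave 676 fold changes for 52 named genes. Of these, 660 kept their direction and side of the threshold, 12 lost the call, 3 gained it and 1 changed sign. The calls of AREG, BTC, NRG1, TGFA and NRG2 held in all of them. ATOH8 was not among these genes, and its call held under the same alternatives. EGFR ranged from -0.044 to 0.0045 (log2) without 1 library. ERBB2 ranged from -0.105 to -0.057 without 1 library and passed the test under the replicate block (log2 -0.084, edgeR adjusted p = 0.0420). HBEGF ranged from -0.141 to -0.085 without 1 library and was at -0.11 by DESeq2, where its call was lost. Without 1 library, 2 to 4 members were called lower. The shedding list then had 1 to 3 higher genes and the adaptor and RAS-ERK kinase list 7 to 9. The PI3K-AKT list had 4 to 5 higher and 1 to 2 lower genes. The list of ERK-responsive genes had 7 to 10 higher and 4 to 5 lower genes. The causes were not tested. Same-numbered libraries of the groups deviated together little (correlations of -0.0067 to 0.054). For replicates 1, 2 and 4, but not 3, the knockdown library correlated most with the control library of its own number. Pairing by number is thus not settled. The replicate block called 4336 genes higher and 4466 lower, against 4253 and 4372 without it. Per-length control levels moved for 7 of the 9 members with the median transcript length. HBEGF and EREG could not move, since their longest and median lengths are equal. Members with few counts, ERBB3 and EREG at 48 to 103 counts per library, limit what change could be seen for them.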
